A study of Mus musculus with 6 samples.

Results

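Dual-specificity phosphatases (DUSPs) remove phosphate from both the threonine and the tyrosine that switch a MAP kinase on, and those that act on MAP kinases are known as MAP kinase phosphatases. They set how strongly and how long ERK, JNK and p38 signaling lasts after a stimulus, and several of their genes are themselves induced by that signaling, which makes them feedback inhibitors. In hippocampal neurons, ERK signaling links synaptic activity to transcription and plasticity. The 10 genes described here were taken by name from the deposited count table, which held 55471 genes. They comprise the nuclear, stimulus-induced phosphatase genes Dusp1, Dusp4 and Dusp5, the genes of the cytoplasmic ERK-selective enzymes Dusp6 and Dusp7, the genes of the JNK- and p38-directed enzymes Dusp8, Dusp10 and Dusp16, and Dusp3 and Dusp14, which encode small atypical members without the MAP kinase-docking domain of the others. All 10 were found in the table and passed the filter on low counts.

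RNA-seq was performed on hippocampi of 3- to 6-month-old C57BL/6 mice, in 3 Control and 3 CBP-ifKO libraries. CBP-ifKO mice carried floxed Crebbp alleles (Crebbp_flox) and the tamoxifen-inducible Camk2a_creERT2 driver, which is active in excitatory neurons of the forebrain, so that other hippocampal cells keep CBP. Both groups received tamoxifen (5 intragastric doses of a 20 mg/mL solution in corn oil, on alternate days), and the study's methods state that each library held pooled hippocampi of 3 female mice. The protocol describes the Control mice as littermates without the driver, although a description field of their labels also reads Camk2a_creERT2, and whether they carried floxed alleles was not stated.

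Total counts ran from 10199008 to 14950257 per library, of which 3378 to 4545 fell on the 10 phosphatase genes. Crebbp, the targeted gene, was at 51.5% of its Control level in CBP-ifKOs (log2 fold change -0.96, SE 0.10, edgeR adjusted p 3.63e-05). Esr1, the gene of the estrogen receptor whose ligand-binding part forms the ERT2 of the transgene, averaged 6.07 ± 0.36 CPM (the count scaled to the size of its library, with TMM factors) in the Control libraries against 66.7 ± 2.91 CPM in the CBP-ifKO libraries (SD, n = 3), with no Control library above 6.29 CPM. The tissue label was matched by Slc17a7 and Camk2a of excitatory neurons, at 554.1 and 1939 CPM in Control, and Prox1 of dentate granule cells, at 116.3 CPM. Control replicate 2 and CBP-ifKO replicate 2 stood apart in opposite directions in their dependence on GC content, with slopes of 0.13 and -0.11 log2 units per 10 points of GC across 17956 genes, against slopes between -0.023 and 0.037 in the other libraries. Fits without both of them are given for the phosphatase genes they move most, for the immediate early genes, for the marker lists and for some lists of the pathway.

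CBP is named for binding CREB, a factor that recognizes the cAMP response element (CRE), and CArG boxes are bound by serum response factor, another route from ERK to transcription. The promoters of 9 of the 10 genes were taken from RefSeq (build GRCm38.p6; 250 bases before and 50 after the start of transcription) and searched on both strands for the full CRE TGACGTCA, its core TGACG (also contained in the full CRE), the AP-1 site TGANTCA, the TATA box TATAAA and the CArG box. The promoters that carried a full CRE or a CArG box are shown for the gene that fell most (Dusp1), for a gene with a smaller difference (Dusp8) and for a nuclear phosphatase gene that was not lower (Dusp5), 5′ to 3′ on the strand of the gene, with the motif matches in capitals:
Dusp1 (chr17:26508423-26508722, minus strand): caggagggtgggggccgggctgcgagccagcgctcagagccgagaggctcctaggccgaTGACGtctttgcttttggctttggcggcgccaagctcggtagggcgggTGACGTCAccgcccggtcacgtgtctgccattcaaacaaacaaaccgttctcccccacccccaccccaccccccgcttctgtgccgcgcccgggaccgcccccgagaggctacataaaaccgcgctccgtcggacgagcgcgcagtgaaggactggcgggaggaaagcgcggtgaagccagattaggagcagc
Dusp8 (chr7:142095235-142095534, minus strand): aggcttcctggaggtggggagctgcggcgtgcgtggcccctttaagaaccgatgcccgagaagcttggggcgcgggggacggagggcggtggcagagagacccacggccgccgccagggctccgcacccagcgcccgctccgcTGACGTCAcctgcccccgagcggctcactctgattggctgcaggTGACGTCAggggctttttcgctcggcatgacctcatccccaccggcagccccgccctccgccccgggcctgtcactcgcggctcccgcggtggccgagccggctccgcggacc
Dusp5 (chr19:53528895-53529194, plus strand): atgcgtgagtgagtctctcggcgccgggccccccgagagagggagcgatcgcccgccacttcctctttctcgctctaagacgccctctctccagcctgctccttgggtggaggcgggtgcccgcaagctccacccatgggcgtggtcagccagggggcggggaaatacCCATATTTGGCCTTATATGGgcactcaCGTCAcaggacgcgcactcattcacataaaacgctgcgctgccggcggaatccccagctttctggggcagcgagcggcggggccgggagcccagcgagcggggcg

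A promoter of Dusp4 was not available, so Dusp4 was not searched and its motifs are not known here. The full CRE occurred in 2 of the 9 promoters, against 1.79% of all 32851 promoters of the same length. In Dusp1 it lay at -143 to -136 from the start site, with a further core at -191 to -187, and Dusp8 held a full CRE at -107 to -100 and another at -63 to -56. The CRE core occurred in 4 of the 9 (Dusp1, Dusp5, Dusp8 and Dusp16), against 20.8% of all promoters. Dusp5 alone among the 9 held CArG boxes, which adjoin each other between -82 and -63 and occur in 1.63% of all promoters. AP-1 sites (7.81% of all promoters) and TATA boxes (13.6%) had 0 matches among the 9. The 9 promoters held 57.3% to 78.7% GC, against a median of 52.7% over all promoters, and the CRE core contains CG. The shares over all promoters were not matched for GC content, so they are not a like comparison. Such matches describe the letters of the window only.

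Per kilobase of exon, the scale on which levels can be compared between genes, the phosphatase genes spanned more than an order of magnitude in Control hippocampus. Dusp3 was highest, at 23.8 ± 2.06 CPM per kilobase (SD, n = 3), and made up 25.7% of the summed level of the 10 genes. Dusp6, Dusp8 and Dusp7 followed at 16.7 ± 1.86, 15.5 ± 0.46 and 10.8 ± 0.61 CPM per kilobase, so that 1 atypical, 2 ERK-selective and 1 JNK- and p38-directed phosphatase gene headed the order. Dusp14 (9.31), Dusp4 (5.84), Dusp5 (4.56), Dusp1 (2.47), Dusp16 (2.05) and Dusp10 (1.65 CPM per kilobase) were lower. The ranges of the 3 Control libraries overlapped between the neighbors Dusp6 and Dusp8 and between Dusp16 and Dusp10, and did not overlap between any other neighbors in this order. The nuclear, stimulus-induced genes together contributed 13.9% of the sum in Control and 12.8% in CBP-ifKO. Their summed levels in replicates 1 to 3 were 13.3, 13.6 and 11.7 CPM per kilobase in Control and 11.2, 9.08 and 11.4 in CBP-ifKO, which do not overlap between the genotypes. The summed levels of the cytoplasmic genes did overlap (25.7 to 30.2 against 22.8 to 26.9 CPM per kilobase), as did those of the atypical pair (30.4 to 36.1 against 29.9 to 30.5). The lack of overlap was not particular to the nuclear genes. The JNK- and p38-directed genes did not overlap either (19.0 to 19.4 against 16.1 to 18.1), nor did the sum of all 10 genes (89.4 to 99.0 against 77.9 to 85.8). Of all single genes tested, 25.6% did not overlap (13.9% lower in CBP-ifKO). Dusp8 alone made up 16.7% of the summed Control level of the 10 genes, and the JNK- and p38-directed genes together 20.7%. Trends on GC content and length were not removed from these sums.

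**Figure D1:**
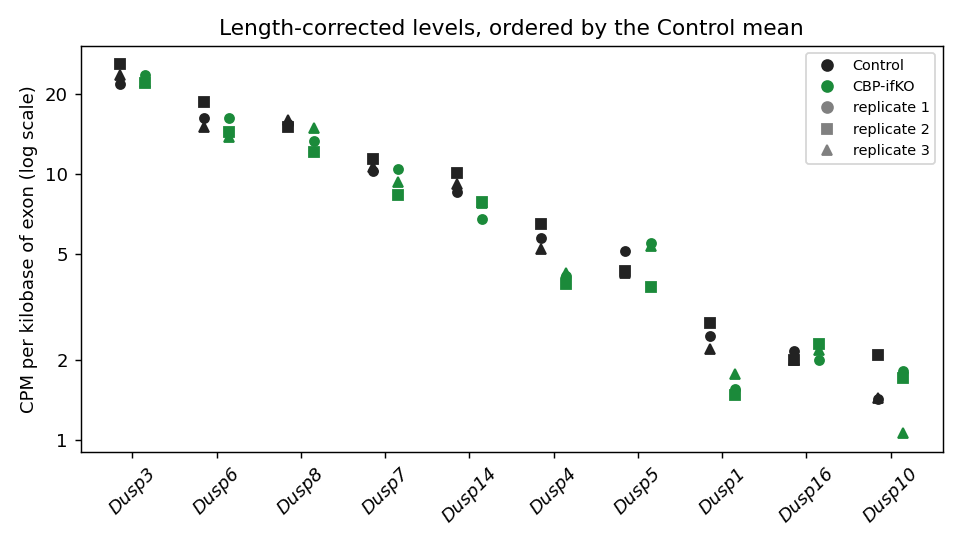
Levels of the 10 phosphatase genes in CPM per kilobase of exon (log scale) in each library, ordered by the Control mean, with Control in black and CBP-ifKO in green and 1 marker shape per replicate number. Dusp3 (Control mean 23.8) stands at the top and Dusp10 (1.65) at the bottom, and the green points of Dusp1, Dusp4, Dusp8 and Dusp14 all lie below the black ones.

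Which of these genes depended on CBP in unstimulated mice was asked by comparing the genotypes. Dusp1 and Dusp4 were lower in CBP-ifKOs and passed the threshold (edgeR quasi-likelihood test, Benjamini-Hochberg adjusted p under 0.05 over 17981 genes). They are 2 of the 10 genes, against 6.39% of all genes tested in either direction and 4.99% called lower. None of the 10 was called higher (1.40% of all genes). At an unadjusted p under 0.05 the count was 5 of 10, all lower, against 21.2% of all genes (13.0% lower and 8.23% higher). The libraries of the genotypes did not overlap in 4 genes, all lower in CBP-ifKO (Dusp1, Dusp4, Dusp8 and Dusp14), against 25.6% of all genes without overlap (13.9% lower). The median log2 fold change of the 10 was -0.19, and that of all genes was -0.0033. Without Control replicate 2 and CBP-ifKO replicate 2, neither gene was called and the median was -0.063. In whole-tissue RNA, fewer cells of a type and less RNA per cell cannot be told apart.

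**Figure D2:**
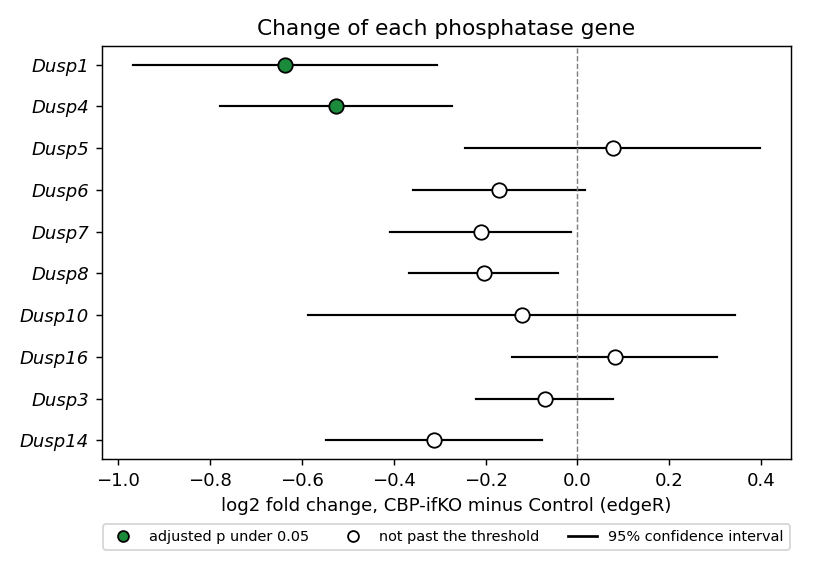
Log2 fold change (CBP-ifKO minus Control, edgeR) of each phosphatase gene with its 95% confidence interval, filled where the adjusted p was under 0.05. Dusp1 (-0.64) and Dusp4 (-0.52) are filled, and the intervals of Dusp7, Dusp8 and Dusp14 lie below 0 without a call after adjustment.

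Dusp1 encodes a nuclear phosphatase of p38, JNK and ERK and is a classical immediate early gene. The gene (ENSMUSG00000024190) lies on the minus strand of GRCm38 chromosome 17, 26505590 to 26562128, with 0.332% of its exon bases shared with Ergic1 on the other strand. Control replicates 1, 2 and 3 held 8.17, 9.10 and 7.24 CPM of Dusp1, and the CBP-ifKO replicates, in the same order as throughout, 5.14, 4.86 and 5.84 CPM. The highest CBP-ifKO library stayed under the lowest Control one, and the CBP-ifKO mean was 64.6% of the Control mean. The log2 fold change was -0.64 (SE 0.16, 95% confidence interval -0.97 to -0.31, edgeR adjusted p 0.0218), from 53 to 106 reads per library. It was -0.63 with DESeq2, the tool of the study (adjusted p 0.0463). Leaving out Control replicate 2 ended the call (-0.54, edgeR adjusted p 0.0589), as did leaving out replicate 1 (-0.62, 0.0602) or 2 (-0.57, 0.122) of CBP-ifKO or both replicates numbered 2 (-0.48, 0.141). Over all 18 alternatives the edgeR, DESeq2 or limma adjusted p of Dusp1 lay between 0.0085 and 0.141, with 14 of them past the threshold.

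Dusp4 encodes a nuclear phosphatase of ERK and JNK that is induced by ERK itself. The gene (ENSMUSG00000031530, chromosome 8, 34807297 to 34819894, plus strand) is on the study's list of genes lower in each of its screens, and since these libraries are 1 of those screens, that listing is not independent evidence. Its levels were 15.8, 17.9 and 14.4 CPM in Control and 11.3, 10.6 and 11.6 CPM in CBP-ifKO. The genotypes did not overlap, and the CBP-ifKO libraries lay within about 1 CPM of each other, at 69.8% of the Control mean. The log2 fold change was -0.52 (SE 0.12, 95% confidence interval -0.78 to -0.27, edgeR adjusted p 0.0140). The call was lost without CBP-ifKO replicate 2 (-0.48, adjusted p 0.0850) or CBP-ifKO replicate 3 (-0.54, 0.0527), and without both replicates numbered 2 (-0.39, 0.101). Adjusted p-values of Dusp4 ran from 0.0034 to 0.101 over the alternatives, 15 of 18 past the threshold, and exon overlaps with other genes were not found.

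**Figure D3:**
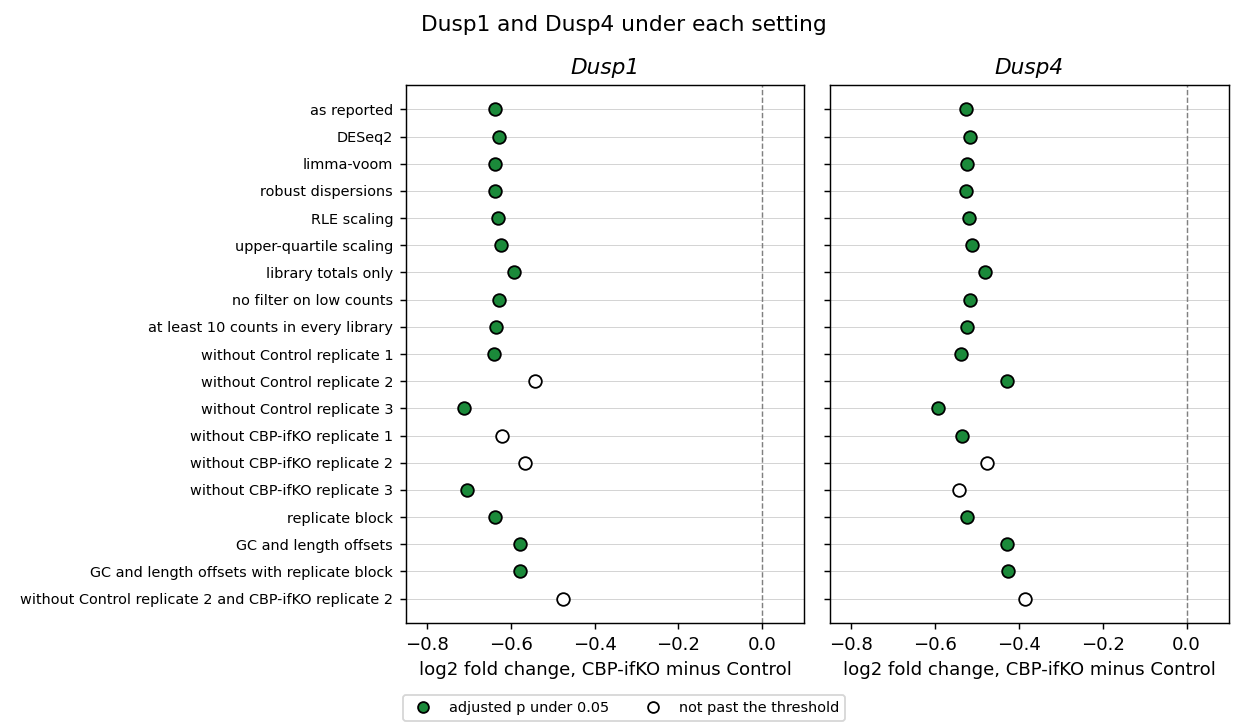
Log2 fold change (CBP-ifKO minus Control) of Dusp1 and Dusp4 as reported and under each of 18 alternative settings, filled where the adjusted p was under 0.05. All values lie below 0, from -0.71 to -0.48 for Dusp1 and from -0.59 to -0.39 for Dusp4, and the open points are fits that leave out libraries.

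Dusp5 encodes the ERK-specific nuclear phosphatase and was not lower. It stood at 12.7, 10.7 and 10.5 CPM in Control and 13.6, 9.27 and 13.2 CPM in CBP-ifKO, so that the genotypes overlapped and CBP-ifKO replicate 2 was the lowest of all 6 libraries. The log2 fold change was 0.076 (95% confidence interval -0.24 to 0.40, edgeR adjusted p 0.832), and it was -0.015 without CBP-ifKO replicate 1 and 0.21 without both replicates numbered 2. The gene (chromosome 19, 53529109 to 53542431) overlaps a gene of the opposite strand in 22.1% of its exon bases, and use of strand in the counting was not stated. The nuclear genes were also set against each other as the log2 ratio of their CPM in each library, for pairs chosen after their values were seen. An exact permutation test on the 4 pairs given here and below gave p of 0.1 or 0.2. With 3 libraries a group its p cannot fall under 0.1, so the test cannot decide. The log2 ratio of Dusp1 to Dusp5 was -0.63, -0.23 and -0.54 in Control and -1.40, -0.93 and -1.18 in CBP-ifKO, a difference of -0.70 between the means without overlap. For Dusp4 to Dusp5 the difference was -0.59, also without overlap. The log2 ratio of Dusp1 to Dusp4 was -0.95, -0.97 and -0.99 in Control. The genotypes differed in it by -0.11, with CBP-ifKO replicate 3 (-0.99) inside the Control range. With 73 to 106 reads of Dusp1 per Control library, counting noise would usually spread the Control values more widely.

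Dusp6 and Dusp7 encode the cytoplasmic phosphatases that dephosphorylate ERK with high selectivity, and Dusp6 is a widely used transcript of ERK activity. Dusp6 was at 51.2, 58.6 and 47.1 CPM in Control and 51.3, 45.3 and 43.3 CPM in CBP-ifKO. CBP-ifKO replicate 1 lay inside the Control range, and the log2 fold change of -0.17 did not pass the threshold (95% confidence interval -0.36 to 0.017, edgeR adjusted p 0.285). Leaving out Control replicate 2 moved it to -0.071, leaving out CBP-ifKO replicate 3 to -0.11, and leaving out both replicates numbered 2 to -0.054. Dusp7 was at 34.5, 38.5 and 35.9 CPM in Control and 35.3, 27.9 and 31.4 CPM in CBP-ifKO, again with overlap in CBP-ifKO replicate 1 (log2 fold change -0.21, 95% confidence interval -0.41 to -0.013, edgeR adjusted p 0.204). Dusp7 is more GC-rich than 91.4% of the genes tested, and its log2 fold change was -0.076 with trends on GC content and length removed (edgeR adjusted p 0.655), -0.12 without CBP-ifKO replicate 2 and -0.072 without both replicates numbered 2. The log2 ratio of Dusp4 to Dusp6, whose transcripts are both used as readouts of ERK, was -1.70, -1.71 and -1.71 in Control and -2.18, -2.10 and -1.90 in CBP-ifKO. This ratio had a Control SD of 0.0085 and was lower in all 3 CBP-ifKO libraries, with a difference of -0.35 between the means. With 145 to 208 reads of Dusp4 per Control library, counting noise would usually spread the ratio more widely than this SD. The pair was chosen after its values were seen, so the SD does not show a tightly held ratio.

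Among the JNK- and p38-directed phosphatase genes, Dusp8 was the most abundant and the one without overlap between genotypes. It reached 75.2, 73.3 and 77.9 CPM in Control and 65.2, 59.1 and 72.5 CPM in CBP-ifKO, where replicate 3 came within 1 CPM of the lowest Control library. Its log2 fold change of -0.20 missed the threshold (95% confidence interval -0.37 to -0.042, edgeR adjusted p 0.129). Dusp8 was the most GC-rich of the 10 (58.8% of its longest transcript, above 94.3% of the genes tested), and with GC and length trends removed its log2 fold change was -0.033 (edgeR adjusted p 0.849). Without CBP-ifKO replicate 2 it was -0.12. Dusp16 was at 15.6 to 16.8 CPM in Control and 15.6 to 17.9 CPM in CBP-ifKO (log2 fold change 0.081, 95% confidence interval -0.14 to 0.30, and 0.022 without both replicates numbered 2). Dusp10, the gene with the fewest reads per kilobase, ranged from 4.32 to 6.36 CPM in Control and from 3.21 to 5.52 CPM in CBP-ifKO (-0.12, 95% confidence interval -0.59 to 0.34, and -0.0064 without both replicates numbered 2). The interval of Dusp10 includes a fall as large as that of Dusp4.

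The atypical pair held the most abundant gene and the largest difference outside Dusp1 and Dusp4. Dusp14, whose product acts on MAP kinases and on signaling adaptors, was at 16.7, 19.8 and 17.9 CPM in Control and 13.2, 15.3 and 15.1 CPM in CBP-ifKO. All CBP-ifKO libraries were below all Control libraries, but the log2 fold change of -0.31 was not past the threshold (SE 0.11, 95% confidence interval -0.55 to -0.076, edgeR adjusted p 0.110), nor was it in any of the 18 alternatives (adjusted p from 0.0572 to 0.266). Dusp3, a small phosphatase of ERK and JNK, was at 102.3, 121.5 and 110.6 CPM in Control and 111.3, 103.2 and 104.3 CPM in CBP-ifKO. It had the narrowest interval of the 10, from -0.22 to 0.077 around a log2 fold change of -0.071 (edgeR adjusted p 0.619). A gene on the other strand shares 12.9% of the exon bases of Dusp3.

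**Figure D4:**
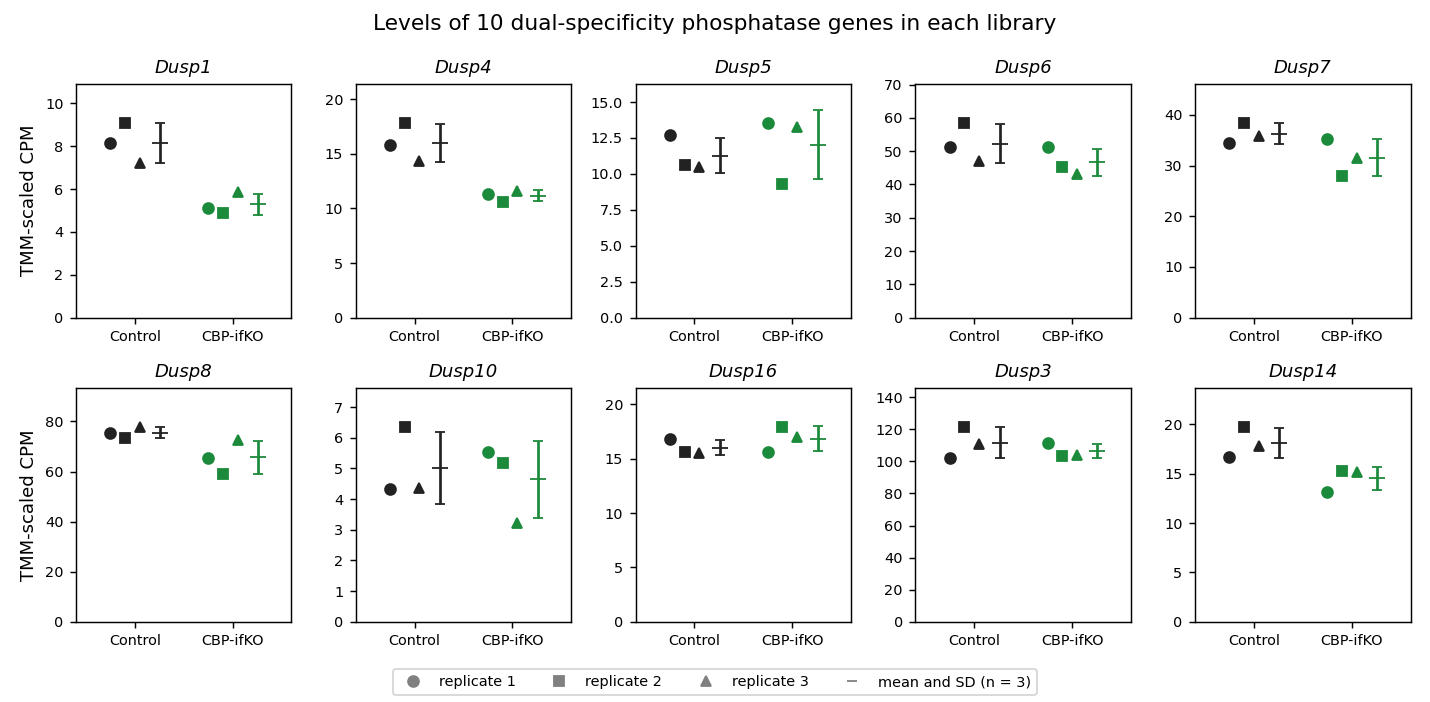
TMM-scaled CPM of each phosphatase gene in every library, with 1 marker shape per replicate number and the mean and SD (n = 3) beside the points, each panel starting at 0. Control and CBP-ifKO points are separated for Dusp1, Dusp4, Dusp8 and Dusp14 and overlap for the other 6, and Control replicate 2 (square) is the highest library of 7 genes.

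Across the 10 genes, Control replicate 2 was the highest of the 6 libraries for 7 genes (20.7% of all genes tested) and CBP-ifKO replicate 2 the lowest for 5 (19.9% of all genes). With trends on GC content and gene length removed from each library, Dusp1 and Dusp4 stayed past the threshold (log2 fold changes -0.58 and -0.43, edgeR adjusted p 0.0281 and 0.0291), and the median of the 10 moved to -0.11. Other transcripts that activity induces were compared beside them. Of 12 immediate early genes, all had a log2 fold change below 0 (median -0.41), and 2 were called, both lower, against 4.99% of all genes called lower: Fosb (-1.03, edgeR adjusted p 0.0349) and Btg2 (-0.52, 0.0365). Their summed level was 194.3, 267.5 and 200.03 CPM in Control and 205.0, 136.4 and 177.7 CPM in CBP-ifKO, highest and lowest in the same libraries as Dusp1, with overlap between the genotypes. Without both replicates numbered 2, 6 of the 11 tested were below 0, the median was -0.13 and 0 were called by edgeR, Fosb at -0.68 (adjusted p 0.188) and Btg2 at -0.45 (0.0656) among them. The part of neuronal activity or of these libraries in the Dusp1 difference was not tested. Fosb was no longer called when either of Control replicates 2 and 3 or of CBP-ifKO replicates 1 and 2 was left out (edgeR adjusted p 0.0578 to 0.187), nor Btg2 when Control replicate 2 or any single CBP-ifKO library was (0.0599 to 0.141).

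Marker genes of hippocampal cell types also differed (of all genes tested, 6.39% were called and 4.99% called lower). All 5 of 5 CA1 markers in the table were called lower (median -0.63), with summed levels of 393.5 to 404.1 CPM in Control and 247.1 to 251.9 CPM in CBP-ifKO, and 3 of 4 markers of oligodendrocyte precursors were called lower (median -0.48, 133.6 to 144.7 against 102.5 to 103.3 CPM). Of the markers tested, 2 of 6 for CA3, 2 of 7 for interneurons and 1 of 6 for excitatory neurons were called lower, and dentate granule markers were called in both directions (2 lower and 1 higher of 7). Astrocyte, oligodendrocyte, microglia, endothelial and choroid plexus markers had 0 calls by edgeR among 32 tested, with 6 at an unadjusted p under 0.05. Without both replicates numbered 2, 4 of the 5 CA1 and 3 of the 4 oligodendrocyte precursor markers were called lower (medians -0.61 and -0.44), as were 2 of 7 astrocyte markers. The part of cell composition in the differences of Dusp1 and Dusp4 was not tested.

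The remaining dual-specificity phosphatase genes served as a comparison within the enzyme family. Dusp2 and Dusp9, the MAP kinase phosphatase genes outside the 10, had 2 to 10 and 1 to 13 reads per library and were not tested. Of 16 other genes of the family, 11 were tested and 0 were called by edgeR. Their log2 fold changes ran from -0.39 to 0.68 around a median of -0.070. At an unadjusted p under 0.05 there were 5 of the 11, against 21.2% of all genes. These 5 pointed in both directions: Styx, Epm2a and Dusp23 were at higher and Dusp18 and Dusp15 at lower levels in CBP-ifKO (edgeR adjusted p from 0.0539 to 0.192). Each was without overlap, as were 25.6% of all genes. With GC and length trends removed, 1 of the 11 was called higher and the median was 0.075. Epm2a encodes laforin, a phosphatase of glycogen. The 5 untested genes were Dusp13, Dusp21, Dusp27, Dupd1 and Styxl1.

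The other negative regulators of the pathway were examined next. Ptpn5 encodes STEP, a striatal-enriched tyrosine phosphatase of ERK and p38 that is also found in hippocampal neurons. It reached 63.6, 70.0 and 69.9 CPM in Control and 57.6, 47.8 and 53.5 CPM in CBP-ifKO, without overlap (log2 fold change -0.36, SE 0.078, edgeR adjusted p 0.00984). Ptprr, another phosphatase of this kind, was not called (-0.066, edgeR adjusted p 0.764). Sprouty and Spred proteins, which restrain Ras and Raf, had 0 of 7 genes called by edgeR, with a median of -0.19. At an unadjusted p under 0.05 there were 3 (Spred2, Spry2 and Spry1), all lower, against 21.2% of all genes (13.0% lower). Without both replicates numbered 2, 1 of the 7 was called lower and the median was -0.17. The Ptpn5 call was lost without Control replicate 3 or without CBP-ifKO replicate 2 or 3 (edgeR adjusted p from 0.0550 to 0.0779).

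Over 6 lists of the kinase cascade, 5 of 67 genes tested were called (7.46%, against 6.39% of all genes tested), a share near the background. All 5 were lower, as were 78.1% of the calls over the whole table. Without both replicates numbered 2, 7 of the 67 were called lower and 1 higher (11.9%), against 1200 calls among 17968 genes tested. Of 12 MAP kinase genes tested, Mapk14, which encodes p38 alpha, a substrate of Dusp1, was called (from 80.0 ± 2.22 to 64.6 ± 2.59 CPM, log2 fold change -0.31, edgeR adjusted p 0.00924). Mapk3, with Control and CBP-ifKO means of 75.0 and 62.5 CPM, did not pass the threshold (log2 fold change -0.26, edgeR adjusted p 0.0502). Among 7 MAP kinase kinase genes, 18 MAP3 kinase genes and 11 genes of kinases activated by MAP kinases, 0 were called by edgeR, with 3, 5 and 2 at an unadjusted p under 0.05. Mras, a Ras-related GTPase, was the only call among 9 Ras and Raf genes (-0.27, edgeR adjusted p 0.0109). Of 10 scaffold and adaptor genes, 3 were called: Pea15a, whose product holds ERK in the cytoplasm (-0.28, edgeR adjusted p 0.0148), Ksr1, a scaffold of Raf, MEK and ERK (-0.28, 0.0263), and Mapk8ip1, a scaffold of JNK (-0.30, 0.0496). Mapk8ip1 kept its call in 4 of 18 alternatives, and with GC and length trends removed neither Ksr1 (-0.13, adjusted p 0.284), Mapk8ip1 (-0.099, 0.375) nor Mras (-0.18, 0.0738) was called. Mapk14 lost its call without Control replicate 3 (edgeR adjusted p 0.0687) or CBP-ifKO replicate 3 (0.0727), Mras without replicate 3 of either genotype or CBP-ifKO replicate 2, Pea15a without CBP-ifKO replicate 2 or 3, and Ksr1 without Control replicate 3 or CBP-ifKO replicate 1 or 2.

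Transcripts commonly used as a readout of ERK output formed a list of 10 genes that contains Dusp4 and Dusp6. Of 9 tested, 3 were called, all lower, against 4.99% of all genes called lower, and the median log2 fold change was -0.28. The 3 are Ccnd1, Etv5 and Dusp4, the last already counted among the 10 phosphatase genes. Without both replicates numbered 2, 1 of the 9 was called and the median was -0.18. Ccnd1, the gene of cyclin D1, changed most, from 24.8, 30.5 and 27.8 CPM in Control to 19.3, 17.7 and 18.4 CPM in CBP-ifKO (-0.59, SE 0.10, edgeR adjusted p 0.00193), and kept its call in all 18 alternatives. A gene of the opposite strand overlaps 23.4% of its exon bases. Ccnd1, Pea15a and Dusp4 are all on the study's list of genes lower in each screen, and these libraries are 1 of those screens. Etv5, an ETS transcription factor gene, fell by 0.34 (edgeR adjusted p 0.0422), with its call kept in 9 of 18 alternatives and lost in each fit without 1 library other than that without CBP-ifKO replicate 1. Spry2, Etv4, Spry4, Dusp6, Phlda1 and Epha4 were not called.

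**Figure D5:**
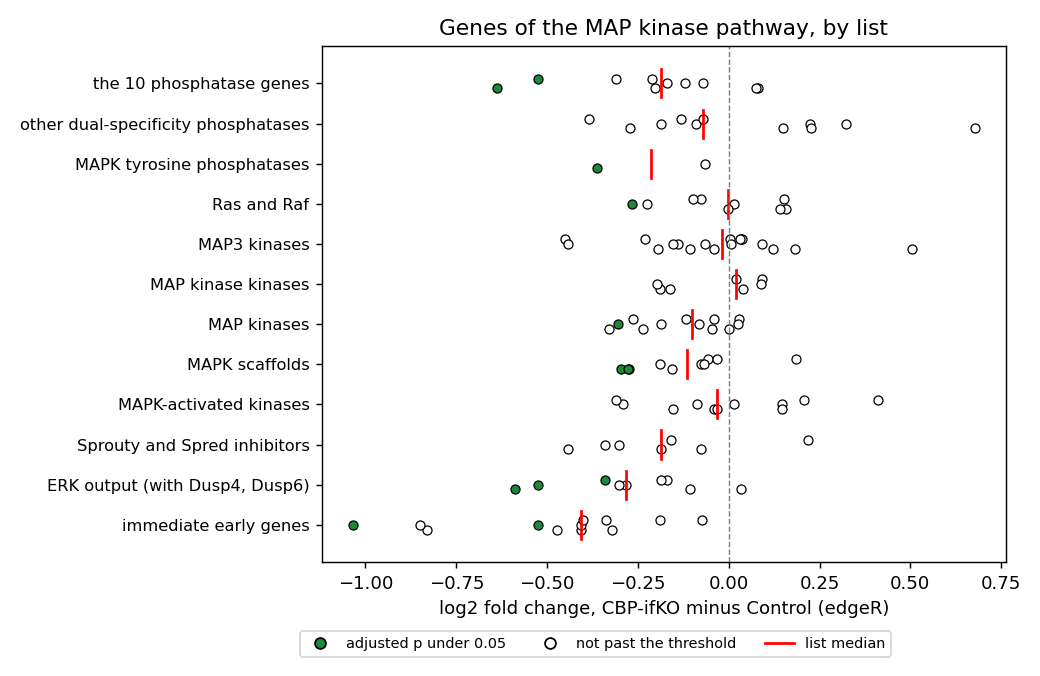
Log2 fold change (CBP-ifKO minus Control, edgeR) of every gene tested in each list of the MAP kinase pathway, filled where the adjusted p was under 0.05, with the list median as a red line. All filled points lie below 0, and list medians run from -0.41 (immediate early genes) to 0.020 (MAP kinase kinases).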

How the data were processed

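Hippocampal RNA of 3 Control and 3 CBP-ifKO libraries was sequenced single-end (50 bp). The authors trimmed reads with Trim Galore (0.6.4), aligned them with STAR (2.6.1) to GRCm38, kept reads of sufficient mapping quality and used Rsubread to count them over Ensembl exons. The authors deposited these counts unnormalized, beside the exon length of each gene. Symbols, coordinates and exon overlaps came from GENCODE M21 (GRCm38), which matched 55230 of 55471 identifiers. Use of strand was not stated.

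Counts were tested with edgeR (4.0.16, R 4.3.3): TMM scaling, filterByExpr (minimum count 10, total 15), quasi-likelihood F-test on genotype, Benjamini-Hochberg adjustment over all genes tested, threshold 0.05. SEs were obtained as log2 fold change over √F. The fit was tested on simulated data. Alternatives were DESeq2 (1.42.0), limma-voom (3.58.1), robust dispersions, and other scalings and filters. Further alternatives were each library left out, the replicate number as a block, and splines (5 degrees of freedom) on GC content and length. DESeq2 was given the same genes as edgeR, but its adjusted p covered 13100 of them. Leaving out both replicates numbered 2 was added after seeing the data.

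All members, Crebbp, Esr1, called pathway genes (at most 4 a list) and the 3 nearest profiles per called member were to be named. Spry, Spred, Mapk3, Ptprr and other uncalled genes were chosen after their values were seen, as were pairs for ratios. Members and lists were chosen with earlier results of these data known. Protein features were not analysed here. Libraries are pools of animals and their p-values measure the spread between pools. Within each genotype, libraries differed beyond sampling noise (chi-square per degree of freedom at least 2.48).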

Additional observations from a re-analysis of the deposited data

How the results depend on the processing

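Of 180 values (10 phosphatase genes under 18 alternatives), 168 kept their direction and their side of the threshold, 7 lost a call (those of Dusp1 and Dusp4 above) and 5 changed sign without passing it: Dusp3 to 0.0051 and Dusp10 to 0.11 without Control replicate 2, Dusp5 to -0.015 without CBP-ifKO replicate 1, Dusp10 to 0.093 without CBP-ifKO replicate 3, and Dusp3 to 0.025 without both replicates numbered 2. With libraries left out, the log2 fold change of Dusp3 ran from -0.13 to 0.025, that of Dusp5 from -0.015 to 0.26 and that of Dusp10 from -0.24 to 0.11. Of the 12 other genes followed, 164 of 215 values kept direction and side, 51 lost the call and 0 changed sign, and DESeq2 gave no adjusted p for Fosb. All 60 member levels recomputed with other scalings stayed within 1 SD. Leaving out one replicate at a time left 0 to 2 members called (all lower), with 0 without CBP-ifKO replicate 2, and 0 were called without both replicates numbered 2. Over the whole table, 1149 genes were called (897 lower, 252 higher), and with a single replicate left out 498 to 1326 (416 to 984 lower, 76 to 342 higher), the low counts being 546 (Control replicate 3 left out), 498 (CBP-ifKO replicate 2) and 526 (CBP-ifKO replicate 3), against 1200 without both replicates numbered 2. Genes called higher numbered 514 under library totals only and 413 when low counts were not filtered, and the cause was not tested. With library totals only, 56.5% of calls were lower against 78.1% as reported, and with GC and length offsets 66.3%. With GC and length trends left in, deviations of libraries with the same number were hardly correlated (0.077, 0.037 and 0.0022). The check was not repeated with these trends removed, so it cannot decide whether the numbers pair libraries. With the replicate block, 1210 genes and both Dusp1 and Dusp4 were called. GC and length offsets alone gave 1097 genes, and offsets with the replicate block gave 1837 (715 higher), each with the same 2 members. Low counts limit Dusp10 and Dusp1 most.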

Other observations

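For the called phosphatase genes, the genes most alike in profile were sought among 12236 genes of at least 5 CPM, as the root mean square difference of mean-centered log2 CPM over the 6 libraries. Because they were picked on these libraries, their similar fold changes and order of libraries follow from the selection and are no separate evidence. Closest to Dusp4 were Cabp7, a neuronal calcium-binding protein gene (difference 0.030, log2 fold change -0.53, edgeR adjusted p 5.00e-04), Rtn4r, the Nogo receptor gene (0.034, -0.50, 0.00557), and C130074G19Rik (0.047, -0.52, 0.0374). Cabp7 was at 154.2, 181.4 and 148.3 CPM in Control and 111.3, 105.6 and 118.6 CPM in CBP-ifKO, with the same order of libraries as Dusp4. Closest to Dusp1 were Sstr3, a somatostatin receptor gene (0.035, -0.66, edgeR adjusted p 6.71e-04), Pcdh8, a protocadherin gene (0.049, -0.57, 0.00380), and Dpf1, a gene of a neuronal chromatin-remodeling subunit (0.054, -0.61, 0.00133). Cabp7, Sstr3 and Dpf1 are on the study's list of genes lower in each screen, and these libraries are 1 of those screens.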
